A study of Mus musculus with 46 samples.

Results

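The complement system was read at the level of RNA in MC-38 tumors through 10 genes of the 48795 measured: the chains of C1q (C1qa, C1qb, C1qc), the components C2, C3 and C4b, factor B (Cfb), the C1 inhibitor (Serping1) and the receptors of the anaphylatoxins C3a and C5a (C3ar1, C5ar1). The genes were chosen by their place in the pathway, but with earlier results of these data known. All 10 were found by symbol and passed the filter on low values in every comparison. MC-38 is a mouse colon carcinoma line that was grown under the skin of C57BL/6 mice, and RNA of the whole tumor was sequenced, cancer cells and host cells together. The study's methods describe the mice as females of 8 to 10 weeks.

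The 46 samples fall into 8 groups. There were 3 cultures of MC-38 cells without any host and 3 baseline tumors from untreated WT mice. WT mice that received an isotype antibody gave 5 tumors after 1 dose (day 4 of treatment) and 5 after 2 doses (day 8), and WT mice given the PD-1 antibody muDX400 at 5 mg/kg gave 5 tumors at each of these times. The last groups were 10 tumors labelled PD-1cKO and 10 from WT littermates, labelled day 28 (the study's methods give an earlier day), and tamoxifen at 40 mg/kg on 5 days had been given to both. In PD-1cKO mice a tamoxifen-activated Cre driven from the Rosa26 locus, which is active in most cell types and not in T cells alone, removes exons 2 and 3 of Pdcd1. Each tumor is called a replicate, since the labels number the samples within a group.

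Complement is a cascade of plasma proteins. C1q binds antibody or altered surfaces and starts the classical pathway, in which C4 and C2 form an enzyme that cleaves C3, while factor B forms the corresponding enzyme of the alternative pathway. C3a and C5a, the small fragments released, act on receptors of myeloid cells, and the C1 inhibitor blocks the first proteases. The liver makes most of the plasma components, C1q comes mainly from macrophages and related myeloid cells, and tissues make the other components locally to differing degrees.

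In the mouse genome build GRCm38 (GENCODE M21) all 10 are protein-coding genes on the minus strand. The C1q chains lie next to each other on chromosome 4, with C1qb (ENSMUSG00000036905) at chr4:136880129-136886187, C1qc (ENSMUSG00000036896) at chr4:136889804-136893065 and C1qa (ENSMUSG00000036887) at chr4:136895917-136898803. C4b (ENSMUSG00000073418, chr17:34728380-34743882), Cfb (ENSMUSG00000090231, chr17:34856374-34862518) and C2 (ENSMUSG00000024371, chr17:34862604-34898265) lie in the class III part of the major histocompatibility complex. C3 (ENSMUSG00000024164) lies farther along the same chromosome at chr17:57203970-57228136. Serping1 (ENSMUSG00000023224) is at chr2:84765387-84775444, C3ar1 (ENSMUSG00000040552) at chr6:122847138-122856161 and C5ar1 (ENSMUSG00000049130) at chr7:16246743-16259540. Sequence shared with other genes leaves some values less certain. Of all 50-base stretches of Cfb transcripts, 73.0% also occur in Gm20547, a transcript that runs through C2 and Cfb, and of those of C2 38.7% do. C4b shares 34.6% of its stretches with its neighbour C4a. Gm20547 was listed at no more than 1.24 FPKM and C4a at no more than 2.24 FPKM in any sample, and the other 7 members shared no stretch with another gene.

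Sequence before the start site is shown for C1qb and C1qc, chains whose levels moved together, and for C3, which rose the most after 2 doses. RefSeq promoters (GRCm38.p6) were at hand for 5 members (C1qb, C1qc, C3, C3ar1, C5ar1), and each line below gives the 250 bases before the start on the minus strand, chr4:136886201-136886450 for C1qb, chr4:136892915-136893164 for C1qc and chr17:57228137-57228386 for C3. Capitals mark a match to 1 of 5 motifs searched on both strands of a window that also took in the first 50 bases of the transcript.
C1qb: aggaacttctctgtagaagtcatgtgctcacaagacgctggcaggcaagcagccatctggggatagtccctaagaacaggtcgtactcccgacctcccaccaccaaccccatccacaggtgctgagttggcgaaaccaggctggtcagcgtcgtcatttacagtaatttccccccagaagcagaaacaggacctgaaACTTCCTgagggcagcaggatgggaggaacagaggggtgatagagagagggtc
C1qc: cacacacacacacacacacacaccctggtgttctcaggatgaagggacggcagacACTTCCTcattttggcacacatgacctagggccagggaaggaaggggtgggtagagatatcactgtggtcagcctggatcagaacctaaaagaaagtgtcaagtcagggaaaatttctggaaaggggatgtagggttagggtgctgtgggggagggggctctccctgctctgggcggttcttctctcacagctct
C3: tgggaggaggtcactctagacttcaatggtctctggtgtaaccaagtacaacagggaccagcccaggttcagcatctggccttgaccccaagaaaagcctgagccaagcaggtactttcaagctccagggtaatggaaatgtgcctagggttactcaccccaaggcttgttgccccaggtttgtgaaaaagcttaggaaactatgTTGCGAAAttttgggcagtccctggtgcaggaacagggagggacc
The motifs were AGGAAGT (the PU.1 type, of a factor of myeloid cells), TTGCNNAA (C/EBP), TTCNNNGAA (the interferon-gamma activated site), the core of the interferon-stimulated response element and an NF-kB type motif, none of which overlapped another here. C1qb held AGGAAGT as its reverse complement, beginning 53 bases before the start, C1qc 195 bases before it, and C5ar1 at 190 and 72 bases, while 9.35% of all 32851 promoters of the same length hold it. C3 held TTGCNNAA at 45 bases (10.8% of promoters). The other 3 motifs were found in none of the 5 windows, where 8.30%, 3.44% and 1.47% of promoters hold them. A match describes letters and is not a bound site.

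Values are FPKM, fragments scaled by the length of the transcript and the size of the library, so that levels of different genes can be set side by side. A difference is on the scale of log2(FPKM + 0.1) and was tested with limma over all genes whose mean reached 0.5 FPKM in 1 or both groups. A gene was called at a Benjamini-Hochberg adjusted p under 0.01 and a fold of at least 1.2. FPKM keep no read depth, so precision is given by the spread between tumors. In bulk tissue, fewer cells of a type and less RNA per cell cannot be told apart.

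Some libraries stood apart. Short noncoding RNA took 30.2% to 66.5% of the FPKM in the tumors labelled PD-1cKO and their WT controls against at most 0.0746% in the antibody study, so levels of both studies are not on 1 scale. Isotype replicate 1 after 1 dose held 54.6% mitochondrial RNA against a group median of 3.94%, and it was the lowest of the 5 for 10 of 10 members. Pdcd1, the targeted gene, had a median of 8.29 FPKM (5.05 to 19.95) in tumors labelled PD-1cKO and 3.01 FPKM (1.71 to 7.02) in WT tumors, with 7 of 10 above every WT tumor. A value over the whole gene cannot separate the removed exons from the rest, so these data do not check the label, and the tumors are called by it. The labels do not say whether cultures of a group were grown apart, nor which tumors were handled together, so the p-values measure the spread between these samples, which may in part be technical.

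Each C1q chain was higher than every other member in all 43 tumors. Together they made up a median of 81.7% to 89.2% of the FPKM summed over the 10 members in the 7 tumor groups, with single tumors between 77.2% and 90.5%. In the antibody study C1qa group means ran from 241 FPKM ± 121 (SD, n = 5) in isotype tumors after 1 dose, with replicate 1 at 51.0, to 853 ± 211 (SD, n = 5) in PD-1 Ab-treated tumors after 2 doses. In the PD-1cKO study they were 425 ± 66.6 (SD, n = 10) in WT tumors and 920 ± 319 (SD, n = 10) in tumors labelled PD-1cKO. At the other end C2, the protease subunit of the classical C3 convertase, had means from 2.17 FPKM at baseline to 11.5 after 2 doses of PD-1 Ab, and of 5.41 and 16.0 FPKM in WT and PD-1cKO-labelled tumors.

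Groups were ordered by their means within the antibody study only, because the other study is not on its scale. Sample identifiers of the cultures, the baseline tumors, the 1-dose tumors and the 2-dose tumors fall into separate runs. Run and group therefore cannot be told apart across these sets. PD-1 Ab-treated tumors after 2 doses came first for 10 of 10 members, and cultured cells came last for 10 of 10. Baseline tumors had the lowest mean of the 5 tumor groups for 7 members and isotype tumors of 1 dose for the other 3. Without isotype replicate 1 of 1 dose, an alternative chosen after seeing the data, baseline was lowest for 9. Ranges of groups next to each other in this order mostly overlapped. Apart from the cultures, which lay below every tumor of the next group for 10 of 10 members, 4 members had 1 step without overlap. No share over all genes was computed for places in this order or for these steps, so the counts describe the members only. The 1-dose PD-1 Ab-treated tumors lay above the next group for C4b (12.9 to 31.1 FPKM over isotype 2 doses at 9.01 to 10.4), Cfb (79.7 to 118 over baseline at 30.8 to 58.3) and Serping1 (43.2 to 79.5 over isotype 2 doses at 23.4 to 30.7). For C4b they overlapped their own control, isotype 1 dose, which reached 16.2 FPKM. Without isotype replicate 1 that control came next for all 3. The C4b step was then gone, while those of Cfb and Serping1 stayed. In that order baseline tumors also lay wholly below the group before them for C4b, Serping1 and C5ar1. For C5ar1 the isotype tumors of 2 doses (7.99 to 9.63 FPKM) lay just above those of 1 dose (2.45 to 7.97).

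**Figure D1:**
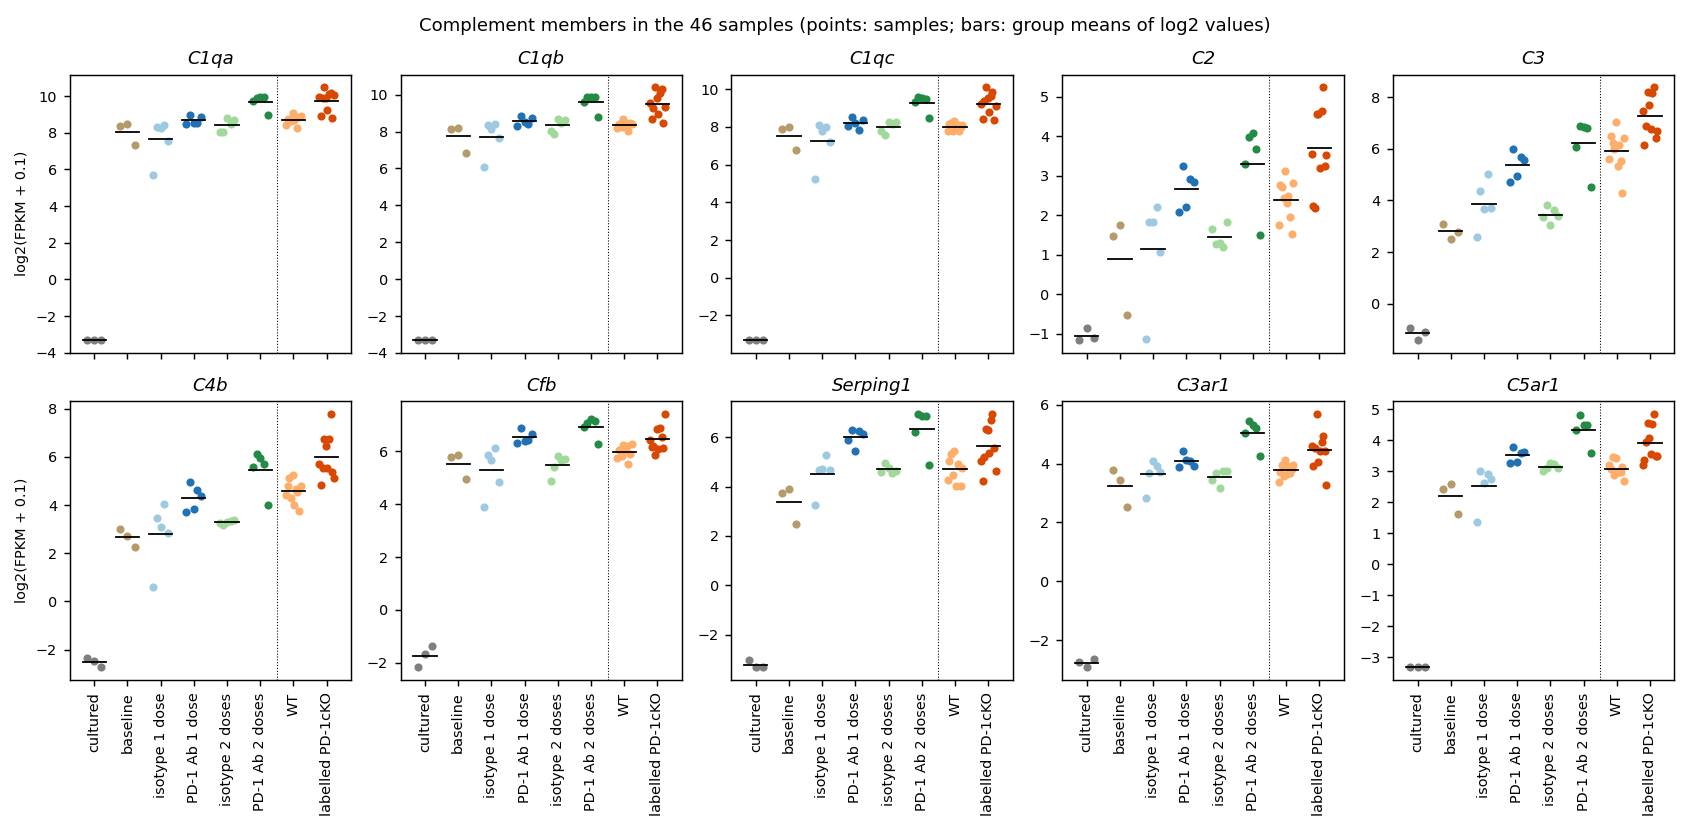
Level of each member in the 46 samples as log2(FPKM + 0.1), 1 panel a gene with its own vertical axis. Points are samples, bars are means of the log2 values, and the dotted line parts the antibody study from the PD-1cKO study, whose levels are not on 1 scale. Cultured cells have the lowest mean in all 10 panels. For C2, isotype replicate 1 of 1 dose (0.353 FPKM) lies within the range of the cultures (0.346 to 0.450). PD-1 Ab replicate 5 is the low point of the 2-dose PD-1 Ab group in each panel.

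Cultured MC-38 cells held little RNA of any member. C1qa, C1qb, C1qc and C5ar1 were listed at 0 in 3 of 3 cultures. C3 was at 0.422, 0.275 and 0.373 FPKM and C2 at 0.346, 0.450 and 0.364 FPKM, the highest members there, while Cfb was between 0.122 and 0.286, C4b between 0.0508 and 0.0947, C3ar1 between 0.0328 and 0.0610, and Serping1 at 0.0217 in 1 culture and 0 in the others. The defining macrophage marker Adgre1 was listed at 0 in every culture and Lyz2 had a mean of 0.146 FPKM, but Mertk was at 6.90 FPKM and Csf1r at 1.75, so that 1 of 10 macrophage markers was at 0 throughout.

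Every member averaged under the filter's 0.5 FPKM in the cultures, so each was tested only through its level in tumors. Against these cultures, 5 isotype tumors after 2 doses were called higher for 10 of 10 members (background 20.2% of genes called higher). Every tumor lay above every culture for all 10 (background 26.3%). The filter fixed this direction in advance, so these counts and the p-value below describe levels and are no support. Cultures and tumors also came in separate runs of sample identifiers. Among the 5 members above 0 in every culture, the log2 difference was smallest for C2 (2.49, SE 0.20, limma adjusted p 8.97e-06) and larger for C3 (4.60, SE 0.19), C4b (5.83, SE 0.14), C3ar1 (6.32, SE 0.18) and Cfb (7.23, SE 0.24). These sizes rest on the 0.1 FPKM added, because the cultures are near 0. For the C1q chains and C5ar1, listed at 0 in every culture, and Serping1, listed at 0 in 2 of 3, no size is given. The tumors also held macrophage markers (10 of 10 called higher), T cell markers (6 of 6 tested) and fibroblast markers (7 of 8) above the cultures. So were neutrophil, endothelial and adipocyte markers (4 of 4 tested each), interferon-gamma response genes (11 of 11) and epithelial markers (3 of 5 tested). For markers under the filter in the cultures, such as the T cell markers (summed at most 0.0871 FPKM there), the direction was fixed as well. These counts too describe levels and are no support. Hepatocyte markers stayed near 0 in the tumors, with a summed level of 0.793 to 2.16 FPKM over 6 genes.

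After 2 doses of PD-1 Ab, 10 of 10 members were higher than in isotype tumors and all passed the test, where 6.69% of 15062 genes were called higher. Folds ran from 2.30 (C5ar1) to 6.85 (C3), and the median log2 difference of the members was 1.46 against -0.04 over all genes tested. For 8 members every treated tumor lay above every isotype tumor, which held for 9.23% of genes.

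C3, the component on which all pathways converge, rose the most. Isotype tumors had 10.2, 14.01, 8.27, 12.2 and 10.4 FPKM, and PD-1 Ab-treated tumors 67.5, 118.5, 115, 112 and 22.95. The groups did not overlap, although replicate 5 of the treated group was far below the other 4. The log2 difference was 2.78 (SE 0.39, 95% interval 1.92 to 3.63, limma adjusted p 0.00123).

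C4b and C2, which together form the classical C3 convertase, followed. C4b was at 9.53, 9.01, 9.83, 10.1 and 10.4 FPKM in isotype tumors, a narrow range, and at 47.4, 70.1, 62.0, 51.3 and 16.1 after PD-1 Ab (log2 difference 2.17, SE 0.32, limma adjusted p 0.00147). C2 was at 3.04, 2.30, 2.34, 2.17 and 3.47 FPKM against 9.67, 15.6, 16.9, 12.7 and 2.74. Replicate 5 thus fell inside the isotype range for C2, and the log2 difference of 1.86 (SE 0.41) passed narrowly (limma adjusted p 0.00957).

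The C1q chains moved together. C1qa was at 266, 258, 442, 356 and 410 FPKM in isotype tumors and at 838, 967, 990, 980 and 492 in PD-1 Ab-treated tumors. Log2 differences were 1.29 (SE 0.22) for C1qa, 1.26 (SE 0.23) for C1qb and 1.28 (SE 0.22) for C1qc, with limma adjusted p of 0.00267, 0.00366 and 0.00261. The 3 chains differed from each other by much less than their standard errors.

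Cfb, the protease of the alternative pathway, rose from 29.2, 42.2, 56.2, 50.3 and 52.6 FPKM to 121, 135, 150, 141 and 77.3 (log2 difference 1.43, SE 0.21, limma adjusted p 0.00136). Serping1, which inhibits C1r, C1s and the lectin pathway proteases, was at 24.0, 30.7, 26.6, 23.4 and 25.0 FPKM against 74.2, 122.5, 115, 115 and 29.4. Treated replicate 5 lay below isotype replicate 2 for Serping1, and the log2 difference was 1.65 (SE 0.33, limma adjusted p 0.00601).

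Both anaphylatoxin receptors rose as well. C3ar1 was at 10.8, 12.6, 8.98, 13.4 and 13.3 FPKM in isotype tumors and at 32.5, 43.3, 39.6, 37.2 and 18.9 after PD-1 Ab (log2 difference 1.49, SE 0.21, limma adjusted p 0.00119). C5ar1 was at 7.99, 8.49, 9.63, 9.29 and 8.63 FPKM against 20.1, 28.2, 22.7, 22.5 and 11.9 (log2 difference 1.199, SE 0.19, limma adjusted p 0.00203). Neither receptor overlapped between the groups.

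PD-1 Ab replicate 5 was the lowest treated tumor for 10 of 10 members. It was also low in summed macrophage markers, at 737 FPKM where the group's median was 1871, in T cell markers (31.1 against 89.8) and in adipocyte markers (6.33 against 121). Without it all 10 members passed with larger differences, up to 3.20 for C3. Leaving out any 1 of the other 9 tumors took C2 (adjusted p up to 0.0305) and Serping1 (up to 0.0208) past the limit, and C1qb missed it without PD-1 Ab replicate 1, 2 or 3 or isotype replicate 1. Without PD-1 Ab replicate 3, 5 members passed, C3, C4b, Cfb, C3ar1 and C5ar1.

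Markers of other cells moved with the members in this comparison, and their part in the result was not tested. Macrophage markers were called higher for 6 of 10, with a summed level of 475 to 577 FPKM in isotype and 737 to 2421 in treated tumors, among them Adgre1, Csf1r and Lyz2. T cell markers were called for 7 of 7 (8.18 to 16.3 against 31.1 to 127 FPKM) and interferon-gamma response genes for 10 of 11 (564 to 1212 against 1853 to 2132). Fibroblast markers were called for 0 of 8 (906 to 2089 against 1268 to 2922), endothelial for 1 of 5 (18.1 to 23.9 against 24.0 to 81.5) and adipocyte for 1 of 5 (1.47 to 19.7 against 6.33 to 155). Neutrophil markers gave 1 higher and 1 lower of 5 tested, epithelial markers 0 of 6 (2.21 to 27.5 against 2.70 to 51.5 FPKM), and hepatocyte markers 0 of 1 tested at a summed level of at most 2.49 FPKM.

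After 1 dose no member was called, and neither was any of 14556 genes (0%). The estimates were nonetheless above 0 for 10 of 10 members, with log2 differences from 0.45 (C3ar1) to 1.52 (C3), and 7 members had an unadjusted limma p under 0.05, where 6.15% of all genes did. Every treated tumor lay above every isotype tumor for C1qa, Cfb, Serping1 and C5ar1 (background 3.59%). For Serping1 the isotype tumors had 9.52, 25.4, 26.1, 38.4 and 25.2 FPKM and the treated tumors 58.4, 79.5, 43.2, 77.3 and 69.3 (log2 difference 1.49, SE 0.33, limma adjusted p 0.236). For Cfb the values were 14.9, 58.1, 50.5, 70.5 and 28.5 against 79.7, 118, 83.8, 85.7 and 101 (log2 difference 1.25, SE 0.37, limma adjusted p 0.426). C3 was at 5.84, 20.4, 12.6, 32.6 and 12.99 FPKM in isotype tumors and at 26.3, 64.0, 30.8, 51.9 and 47.7 after PD-1 Ab, and 2 treated tumors lay below the highest isotype tumor.

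Isotype replicate 1, the tumor rich in mitochondrial RNA, weighed on this comparison. The median log2 difference of all genes was 0.26 as deposited, -0.04 without that tumor and 0.02 after median-of-ratios scaling. Without it the members' differences shrank to 0.25 (C3ar1) up to 1.2 (C3), 0 members were called where 14 of all genes were, and the lowest limma adjusted p were 0.0229 for Serping1 and 0.0372 for C5ar1. The treated group and 2 isotype tumors also came from 1 run of sample identifiers, and 3 isotype tumors from another. Within the shared run the log2 difference was 1.05 for Cfb (limma adjusted p 0.276) and 1.04 for Serping1 (0.214), with 2 isotype tumors. Summed macrophage markers were at 237.6 to 612 FPKM in isotype and 626 to 845 in treated tumors, and T cell markers at 3.89 to 21.2 and 14.5 to 47.9, and their part in these differences was not tested.

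**Figure D2:**
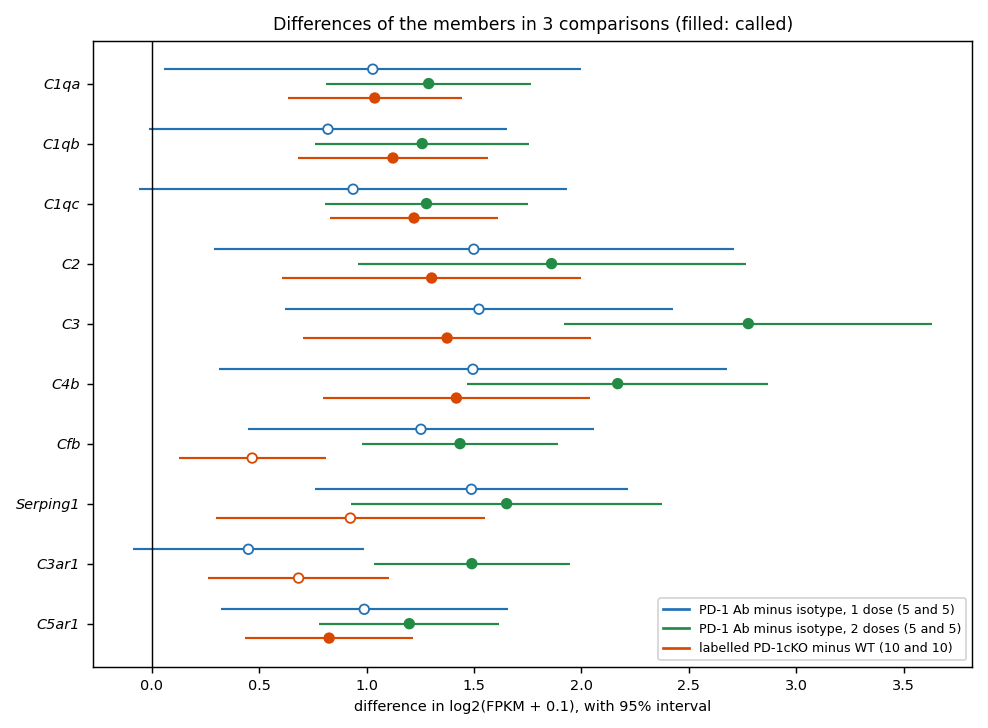
Difference in log2(FPKM + 0.1) for each member in 3 comparisons, with 95% intervals; filled points were called (limma adjusted p under 0.01 and at least 1.2-fold). All 30 points are above 0, C3 after 2 doses reaches 2.78, and Cfb, Serping1 and C3ar1 are open for the label PD-1cKO.

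In tumors labelled PD-1cKO all 10 members had estimates above those of WT tumors and 7 of 10 were called higher, where 8.78% of 15075 genes were called higher. The members' median log2 difference was 1.08. All genes had a median of -0.20, which became -0.01 after median-of-ratios scaling, and the split of all calls moved with it, from 1323 higher of 3217 to 1936 of 3391. C1qc alone had all 10 tumors labelled PD-1cKO above every WT tumor, which held for 0.643% of genes.

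C4b rose the most of the members. Its WT tumors ran from 13.4 FPKM over a median of 24.3 to 38.1, and those labelled PD-1cKO from 28.3 over 49.0 to 219 (log2 difference 1.42, SE 0.30, limma adjusted p 0.00203). C3 ran from 19.6 over 67.4 to 132 FPKM in WT and from 70.1 over 147 to 334 under the label (1.37, SE 0.32, adjusted p 0.00358). C2 ran from 2.78 over 5.38 to 8.59 FPKM against 4.46 over 11.4 to 37.7 (1.30, SE 0.34, adjusted p 0.00567). For C4b and C2, 8 of 10 tumors of the label lay above every WT tumor, a count that 5.07% of genes reached, and for C3 5 of 10 did, which 16.8% reached.

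The C1q chains rose by 1.04 (C1qa, SE 0.20), 1.123 (C1qb, SE 0.21) and 1.22 (C1qc, SE 0.19) on the log2 scale, with limma adjusted p of 0.00111, 0.00115 and 0.000606. C1qc ran from 222 over 261 to 323 FPKM in WT tumors and from 333 over 634 to 1101 under the label. C5ar1 rose from a WT range of 6.42 to 10.9 FPKM to 9.17 to 28.8 (0.83, SE 0.19, adjusted p 0.00302).

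Cfb, Serping1 and C3ar1 did not pass. Cfb had 45.8 to 78.0 FPKM in WT tumors and 58.5 to 170 under the label (log2 difference 0.47, SE 0.16, 95% interval 0.13 to 0.81, limma adjusted p 0.0271). Serping1 had 16.1 to 43.4 against 18.7 to 123 FPKM (0.92, SE 0.30, adjusted p 0.019) and C3ar1 10.4 to 17.4 against 9.58 to 51.1 FPKM (0.68, SE 0.20, adjusted p 0.0118). Each interval excluded 0, and each group of 10 overlapped the other. After median-of-ratios scaling Cfb (adjusted p 0.00986) and C3ar1 (0.00492) passed.

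The SD in FPKM was larger under the label than in WT tumors for 10 of 10 members, whose means were also higher there. The share over all genes was not computed. Replicate 8 had the highest value of its group for 5 members and replicate 4 for 4, while replicates 2 and 9 had the lowest for 3 each. Short noncoding RNA took 66.5% and 64.0% of the FPKM in replicates 8 and 4. It took 53.0% and 31.1% in replicates 2 and 9 (group median 54.0%), and its part was not tested. C2 missed the limit without replicate 4, 5, 7 or 8 of the label or WT replicate 1, 6, 8 or 9 (adjusted p 0.0101 to 0.0123), C3ar1 passed without replicate 2 or 10, and Serping1 without replicate 2.

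Sample identifiers of this study fall into 3 runs that the labels do not explain. Among the tumors labelled PD-1cKO 7 are in the first run, 1 in the second and 2 in the third, and the WT tumors number 0, 9 and 1 in the same order. With the run as a covariate none of the 10 members passed, and 0 of all genes did, although the differences stayed between 0.54 and 2.05 with adjusted p from 0.0257 to 0.173. In the second run the tumor labelled PD-1cKO, which is replicate 8, lay above all 9 WT tumors for 10 of 10 members, as it did for 26.4% of genes. In the third run both tumors lay above the single WT tumor for 6 of 10 members and for 21.5% of genes. Run and label cannot be told apart for the first 7 tumors.

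Under the label PD-1cKO, macrophage markers were called higher for 4 of 10 (summed level 635 to 2307 FPKM against 360 to 779 in WT), T cell markers for 7 of 7 (24.2 to 96.3 against 9.42 to 35.9) and fibroblast markers for 4 of 8 (2259 to 12490 against 1096 to 2305). Neutrophil markers were called for 4 of 7 tested (7.56 to 399.9 against 4.93 to 15.7) and interferon-gamma response genes for 1 of 11 (480 to 1913 against 709 to 1588). Endothelial markers gave 0 of 5 (21.3 to 60.04 against 20.5 to 40.6), epithelial 0 of 6 (3.96 to 63.9 against 3.39 to 10.9) and adipocyte 0 of 5 (0.832 to 346 against 0.884 to 26.4), and of 2 hepatocyte genes tested Alb was called at a mean of 0.803 FPKM. Their part in the members' differences was not tested.

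The effect of 2 antibody doses was set against that of the label in a contrast of contrasts, in which 0 of 10 members and 0.0975% of 16404 genes were called. All 10 estimates were above 0, and 3 members had an unadjusted limma p under 0.05 (15.8% of genes). The difference was 0.97 for Cfb (SE 0.28, 95% interval 0.39 to 1.55, adjusted p 0.107), 1.40 for C3 (SE 0.56, 0.25 to 2.56, adjusted p 0.239) and 0.81 for C3ar1 (SE 0.34, 0.12 to 1.49, adjusted p 0.249). It was close to 0 for C1qc (0.06, -0.59 to 0.71) and C1qb (0.14, -0.59 to 0.86), with signs that turned under some scalings. The median of all genes was 0.23 in this contrast, and 0.04 after median-of-ratios scaling.

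Between 2 doses and 1 dose, 0 of 10 members and 0 of 15289 genes (0%) were called, and 2 members had an unadjusted limma p under 0.05 (7.73% of genes). C3ar1 had the smaller p of those (difference 1.04, SE 0.33, 95% interval 0.35 to 1.73, adjusted p 0.623), with C3 next (1.25, SE 0.60, 0.01 to 2.50, adjusted p 0.623). For Serping1 (0.16, -0.86 to 1.19) and Cfb (0.18, -0.74 to 1.11) the intervals held both signs.

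Ratios between members within a tumor do not depend on how a library was scaled. The ratio of C1qa to C1qb lay between 0.753 and 1.65 over all 43 tumors, and that of C1qa to C1qc between 1.17 and 1.90. Other pairs varied far more. Cfb was 2.46 to 51.6 times as high as C2, with medians of 18.3 in isotype and 11.1 in PD-1 Ab-treated tumors after 2 doses, and 11.7 in WT tumors and 7.39 under the label. The ratio of 51.6 was in baseline replicate 3, where C2 was at only 0.596 FPKM. C1qa was 6.21 to 7.83 times as high as Cfb in WT tumors and 6.25 to 24.4 times under the label. Serping1 was above C4b in all tumors of the antibody study (ratios 1.19 to 6.83) but had a median ratio of 1.145 in WT tumors and 0.774 in tumors labelled PD-1cKO. The ratio of 6.83 was in isotype replicate 1 after 1 dose, the tumor rich in mitochondrial RNA. Libraries of the studies differ in short noncoding RNA, and the part of this in the contrast between studies was not tested.

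**Figure D3:**
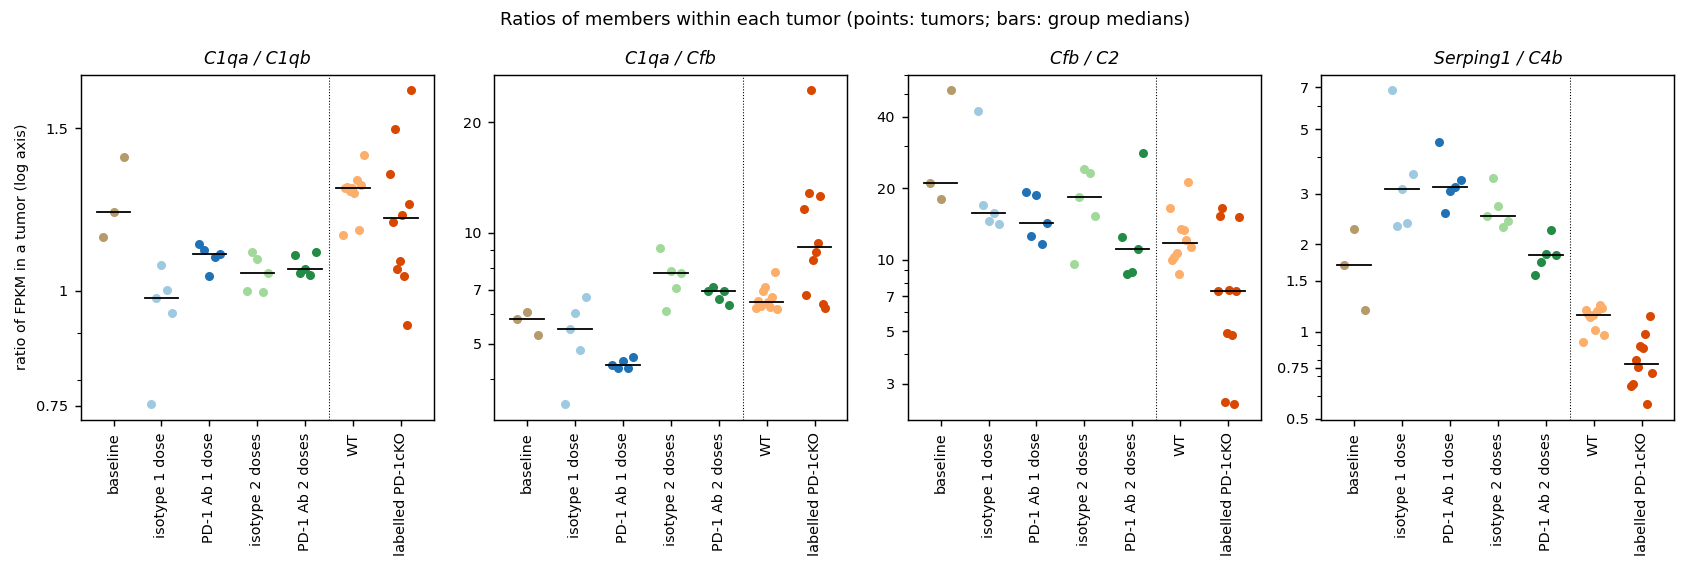
Ratios of FPKM between members within each of the 43 tumors, on log axes. Points are tumors, bars are group medians, and the dotted line parts the studies. C1qa to C1qb stays between 0.753 and 1.65, while C1qa to Cfb reaches 24.4 and Cfb to C2 falls to 2.46 under the label PD-1cKO.

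Tumors of 1 group differed in how much of each member they held, and members followed each other to differing degrees. After log2(FPKM + 0.1) was centred on the mean of each tumor group, Pearson's r over the 43 tumors was 0.96 to 0.97 among the C1q chains and 0.91 between C4b and Serping1, 0.90 between C4b and C2, and 0.89 between C4b and C3. Cfb stood apart from some members, with r of 0.22 to C3ar1, 0.47 to Serping1, 0.50 to C3, 0.51 to C5ar1 and 0.58 to C4b. Its r was higher to C2 (0.68), C1qb (0.70), C1qc (0.72) and C1qa (0.79). These values describe 43 tumors, within each of which the genes share a library and its scaling, and scaling alone gives genes a common part. They include isotype replicate 1 of 1 dose, the lowest tumor of its group for all members.

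**Figure D4:**
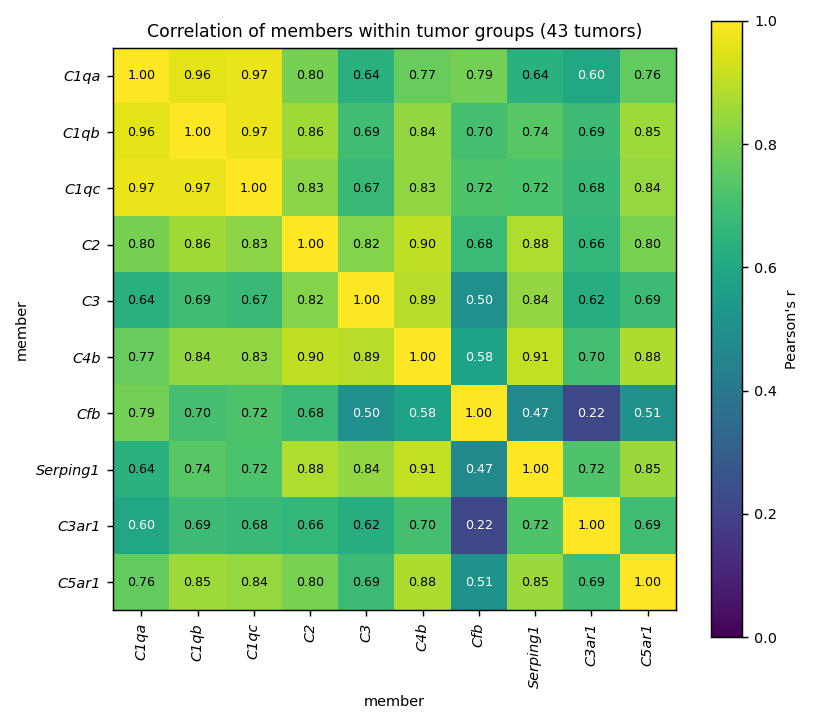
Pearson's r between members over 43 tumors, from log2(FPKM + 0.1) centred on each tumor group's mean. The C1q chains form a block at 0.96 to 0.97, and the Cfb row holds the lowest value, 0.22 with C3ar1.

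Among 13228 genes averaging 1 FPKM or more over the tumors, the 3 with the highest r to each member were listed. For Cfb they were H2-Ab1 (0.87), H2-DMb1 (0.87) and H2-DMa (0.86), which encode an MHC class II chain and the subunits of the class II peptide loader. C1qa was nearest to Fermt3 (0.97), a leukocyte integrin activator, and then to the other chains. C1qb was nearest to C1qc (0.971), and C1qc to C1qa (0.972) and then C1qb (0.971). Cxcl16 was among the first 3 of C1qb and C1qc, at 0.96 and 0.97. C3ar1 was nearest to Cd53 (0.90), Arl6ip1 (0.89) and Slc37a2 (0.88), and C5ar1 to Fmnl1 (0.90), Tyrobp (0.90) and Myo1g (0.90), of which Fmnl1 and Myo1g left the first 3 with median-of-ratios scaling. C3 was nearest to C4b (0.89), Serping1 to Ace (0.92), C4b to Pik3cd (0.94) and C2 to Slit3 (0.94). With median-of-ratios scaling 20 of these 30 entries stayed among the first 3, and without isotype replicate 1 of the first dose 24 did.

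Of 41 other complement genes, 25 passed the filter after 2 doses and 24 in the PD-1cKO study. Of these 9 were called higher and 1 lower after 2 doses, where 1.56% of all genes were called lower, and 8 higher and 0 lower under the label, where 12.6% were lower. The median log2 difference was 1.08 and 0.69.

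Itgb2, Itgam and Itgax, the chains of complement receptors 3 and 4, were called in both comparisons, Itgb2 with 94.1 against 29.2 FPKM after 2 doses (log2 difference 1.67) and 108 against 42.7 FPKM under the label (1.26). So were C5ar2, the other C5a receptor (1.49 and 0.92), and Cfp, which encodes properdin (1.31 and 1.47).

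Other genes were called in 1 comparison. After 2 doses these were C6, a component of the membrane attack complex (2.01, against 0.68 under the label), Cd93 (1.35 against 0.51), the C1 protease gene C1s1 (0.96 against 0.48) and Cr1l, an inhibitor of the C3 convertases in rodents (0.60 against 0.10). Clu, which encodes the fluid-phase inhibitor clusterin, fell after 2 doses by 0.83 on the log2 scale (25.6 against 47.0 FPKM, limma adjusted p 0.00996). It had a difference of -0.97 under the label (adjusted p 0.0211). Cultured MC-38 cells held Clu at a mean of 28.7 FPKM and Cr1l at 13.8, against C1s1 at 1.23, Cd93 at 0.013 and C6 at 0. Under the label C1ra (0.63, against 0.70 after 2 doses), C4a (1.49 against 0.07) and Cd59a, an inhibitor of the membrane attack complex (1.27 against 1.59), were called. In the test of the difference between both effects 0 of 25 other complement genes were called.

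Several members of the cascade were low or level. Hc, the gene of C5, had 1.74 against 1.66 FPKM after 2 doses and 1.17 against 1.31 under the label, while its receptors rose. C8a, C8b, C9, Mbl1 and Mbl2 had means of at most 0.0611 FPKM in the groups of both comparisons. Cfd, the adipocyte protease that activates factor B, had 322 against 40.3 FPKM after 2 doses with a wide spread (log2 difference 2.75, SE 0.92, limma adjusted p 0.0477), beside the adipocyte markers given above.

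**Figure D5:**
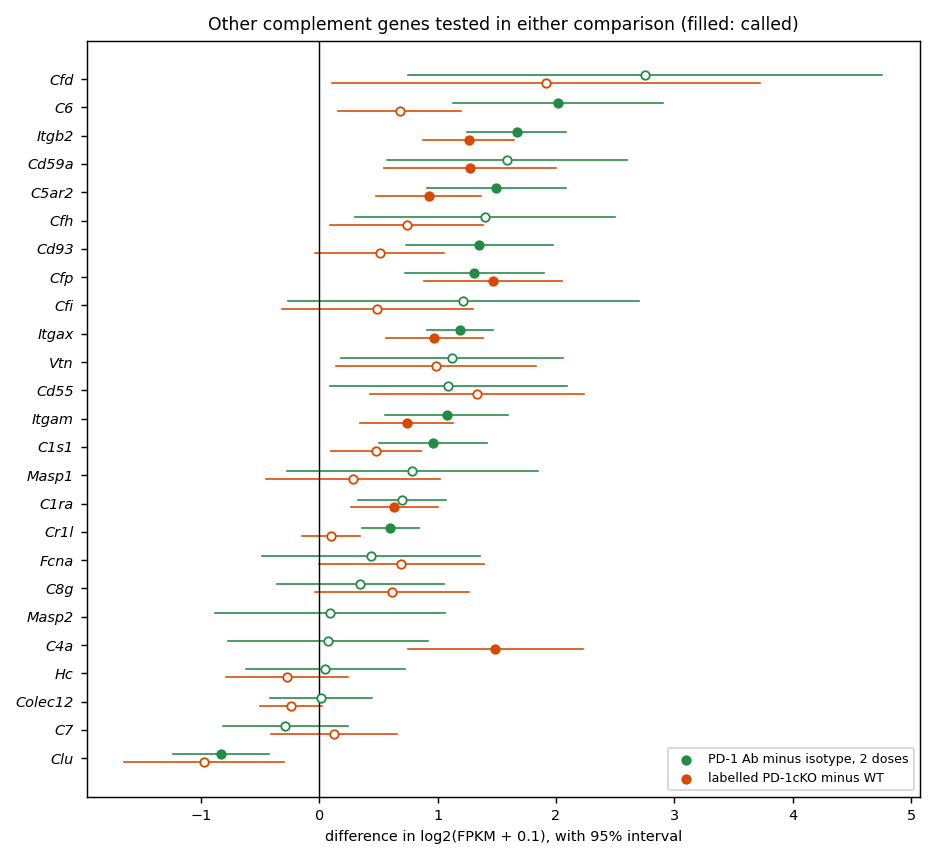
Difference in log2(FPKM + 0.1) of the other complement genes that were tested after 2 doses of PD-1 Ab or under the label PD-1cKO, with 95% intervals; filled points were called. Cfd has the widest interval, and Clu is the only filled point below 0.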

How the data were processed

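RNA of 43 tumors and 3 cultures was sequenced as stranded total RNA with paired reads of 50 bases. According to the study's methods, the authors aligned the reads with OSA in Omicsoft Array Studio to mouse build B38 with Ensembl R86 gene models. They deposited FPKM per gene, which were used here as deposited. The authors tested counts, which were not used here, so limma replaced a count test, and the read depth behind a value is unknown.

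Symbols and loci came from GENCODE M21 by Ensembl identifier (99.1% of 48795 matched). Differences of log2(FPKM + 0.1) were tested with limma 3.58.1 (lmFit, eBayes with trend) in R 4.3.3, between the groups compared alone, with a mean of 0.5 FPKM or more in either group as filter and Benjamini-Hochberg adjustment over all genes tested. A call needed an adjusted p under 0.01 and 1.2-fold. Contrasts of contrasts used 1 fit of their 4 groups. The procedure was tested on simulated data. Groups came from the sample labels, and no 2 samples held identical values. Alternatives were 1 FPKM added, upper-quartile or median-of-ratios scaling, a stricter filter (1 FPKM) and no filter, other call limits, all 7 tumor groups in 1 fit, a replicate block, the run of sample identifiers, and each replicate left out.

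The 10 members and all lists were chosen with earlier results of these data known. Every member is named. Other complement genes are named where called, or as examples of those that were not.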

Additional observations from a re-analysis of the deposited data

Results flagged for a closer look

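Dixon's 95% limit was applied to FPKM, not to the log2 values that were tested, and it was not applied on the log2 scale. Among 60 groups of 4 to 10 tumors (10 members in 6 groups), a lone tumor passed it in 2. Chance gives about 1 in 20. These flags therefore hold for FPKM only. For C4b, replicate 8 labelled PD-1cKO was at 218.8 FPKM, with the next tumor of its group at 107.6 and the lowest at 28.3. For C3ar1, replicate 4 labelled PD-1cKO was at 51.09 FPKM, with the next at 30.5 and the lowest at 9.58.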

How the results depend on the processing

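After 2 doses 10 members passed, but 6 without a filter on low values (adjusted over more genes) and 5 with the replicate number as a block. The same numbers did not pair the tumors (correlations of deviations -0.209 to 0.16 over 3 comparisons), so the block shares only a number. Leaving out 1 tumor gave 5 to 10 members there, 6 to 9 under the label PD-1cKO (7 with all tumors), and 0 after 1 dose. With the run of sample identifiers as a covariate 0 members passed under the label, as did 0 of all genes, and run and label largely overlap. Of the members' own values, 155 of 190 kept direction and call after 2 doses, 271 of 300 under the label, 200 of 200 after 1 dose and 150 of 150 against the cultures, and none changed sign. Against the cultures the filter had fixed the direction wherever it was used. The difference between 2 doses and the label changed sign with median-of-ratios scaling for C1qb (-0.0712) and C1qc (-0.149), with upper-quartile scaling for C1qc (-0.0275), and ranged from -0.0487 to 0.256 for C1qc with 1 tumor left out. Between 2 doses and 1 dose, leaving out 1 tumor gave -0.0330 to 0.525 for Cfb and -0.0233 to 0.530 for Serping1, negative for both without isotype replicate 4 of 1 dose. The lists of nearest genes were also made with 2 alternatives chosen after seeing the data. FPKM carry no depth, so what counting error limits was not computed.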
